A study of Homo sapiens with 6 samples.

Results

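The genes described here were the D-type cyclins CCND1, CCND2 and CCND3 and their partner kinases CDK4 and CDK6, the targets of abemaciclib. They were chosen by symbol from the Ensembl identifiers of the count table and were 5 of its 60656 genes. RNA came from parental ZR-75-1 cells, an oestrogen receptor (ER)-positive human breast cancer line, grown for 4 days with 500 nM abemaciclib or with the same volume of DMSO, its solvent. Each group had 3 libraries, and the study describes its RNA-seq replicates as independent biological replicates. Its reporting form says that ZR-75-1 RNA-seq with abemaciclib and the ER degrader fulvestrant was performed once. Whether that covers these libraries is not stated. All 6 libraries were labelled as parental rather than RB1 knockout cells and shared the same serum-containing medium, and the labels name no other agent. The RB1 knockout libraries were not analysed here, and a single line at a single dose and time stands for each group.

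D-type cyclins are made in response to mitogens and, in ER-positive breast cells, to oestrogen. They bind CDK4 or CDK6, and the active pairs phosphorylate Rb, the product of RB1, which releases E2F factors to switch on genes for DNA replication. Abemaciclib blocks the kinase activity of these pairs, so its direct action is on proteins, whereas the values here are of mRNA.

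The libraries held between 3317860 and 4013156 counts on genes. The 3′ mRNA kit yields reads from the polyadenylated end only, so counts do not grow with transcript length. Levels are compared between genes on that scale as CPM (counts set to a common library total after TMM scaling). How evenly the kit and the counting capture different genes was not tested, so ratios between genes are ratios of counts only. A library with 0 counts for a gene could still have held up to 3 counts, or 0.736 to 0.904 CPM, a limit that covers counting error only. Of 10863 genes with enough counts to test, 12.5% were higher with abemaciclib and 13.3% lower by edgeR at the threshold of 0.05 on the adjusted P, and the median log2 fold change was −0.002. Luminal markers of the labelled line were abundant: KRT19, ESR1 and GATA3 were at 3114, 209.5 and 1784 CPM with DMSO, whereas 9 of 11 markers of basal, mesenchymal, blood and endothelial cells had 0 counts in every library. The other 2 of those 11 were ZEB1, with 0 to 6 counts, and COL1A1, with 35 to 57. In these bulk samples, fewer cells of a kind and less RNA per cell cannot be told apart.

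Among the 5 genes, CCND1 was the only one called in the comparison of abemaciclib with DMSO. It was higher, 1 of the 3 members that could be tested against 12.5% of all genes tested, and 0 members were lower against 13.3% (0 at an unadjusted P under 0.05, and 0 with DESeq2). CCND3 and CDK4 did not pass the threshold. CDK6 had too few counts for the test, and CCND2 had none. The order of the levels was CCND1, CDK4, CCND3 and CDK6 in each of the 6 libraries, with no overlap between neighbours in that order. CCND2 came last, below CDK6 in 5 libraries and level with it at 0 in abemaciclib replicate 1.

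CCND1 (ENSG00000110092.4) encodes cyclin D1 and lies at chr11:69641156-69654474 on the plus strand of GRCh38. Its counts were 4153, 3933 and 3853 in the DMSO libraries and 9867, 12341 and 10825 in the abemaciclib libraries. As levels, these were 1198, 1162 and 1161 CPM against 2969, 3029 and 2910 CPM. Every abemaciclib library lay far above every DMSO library, and the spread within a group was small, with a coefficient of variation of 1.81% with DMSO and 2.01% with abemaciclib. The mean rose from 1174 ± 21.2 CPM to 2969 ± 59.6 CPM (SD, n = 3), which was 1.34 as a log2 fold change with an SE of 0.08 (adjusted P = 2.85e-13, edgeR). The corresponding fold was 2.53, with a 95% interval from 2.25 to 2.84. It was called under all 12 alternative settings, between 1.32 and 1.35 on the log2 scale.

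CCND1 was already an abundant transcript before treatment. Ranked by CPM among all genes, it was between 82nd and 91st in the DMSO libraries, and between 26th and 33rd in the abemaciclib libraries. It took 0.116% to 0.12% of all counts with DMSO and 0.284% to 0.308% with abemaciclib. Its log2 fold change exceeded that of 98.3% of the genes tested and was 185th from the top. By the absolute gain in level, 1796 CPM, it was 5th.

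The 3′ end of CCND1 overlaps LTO1, a gene on the opposite strand. The exons of the pair share 497 bases, 253 of them in the last 500 bases of the CCND1 transcript, and whether the counting used the strand is not stated. LTO1 had 79, 51 and 59 counts with DMSO and 30, 57 and 89 with abemaciclib. These are far fewer than the counts of CCND1, and the groups overlap (log2 fold change −0.24, SE 0.28, adjusted P = 0.593). LTO1 was the only tested gene within 100 kb of CCND1.

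CCND3 encodes cyclin D3 and lies at chr6:41934934-42050357 on the minus strand. Its counts were 89, 130 and 97 with DMSO and 87, 88 and 112 with abemaciclib, or 25.7, 38.4 and 29.2 CPM against 26.2, 21.6 and 30.1 CPM. The groups overlap, and the highest library was a DMSO one. The means were 31.1 ± 6.57 and 26.0 ± 4.26 CPM (SD, n = 3), a log2 difference of −0.26 with an SE of 0.20 (adjusted P = 0.379, edgeR). With these counts, the 95% interval of the log2 fold change ran from −0.68 to 0.15, so a moderate fall could not be told from no change.

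CCND2 encodes cyclin D2, the third member of the family, and lies at chr12:4269771-4305353 on the plus strand. It had 0 counts in all 6 libraries, in either group. The level it could have had unseen was at most 0.736 to 0.904 CPM, depending on the library. TIGAR, which starts 2410 bases beyond the end of CCND2 on the same strand, was the only tested gene within 100 kb. Its log2 fold change was 0.80 (SE 0.29, adjusted P = 0.045), a call that was lost under 7 of the alternatives: DESeq2, no filter on low counts, the replicate block, and the fits without replicate 2 or 3 of DMSO or without replicate 1 or 3 of abemaciclib (adjusted P up to 0.167).

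Within the family, the counts were almost all from CCND1. The share of CCND1 in the D-type cyclin counts was 97.9%, 96.8% and 97.5% in the DMSO libraries and 99.1%, 99.3% and 99.0% in the abemaciclib libraries, so that the groups did not overlap. The mean share was 97.4% ± 0.562 with DMSO and 99.1% ± 0.158 with abemaciclib (SD, n = 3). There were 46.7, 30.2 and 39.7 CCND1 counts for each CCND3 count with DMSO, and 113, 140 and 96.7 with abemaciclib. On the log2 scale this ratio was higher by 1.59 with abemaciclib. For the share and for the ratio, an exact two-sided permutation test over libraries gave P = 0.1, the smallest that 3 libraries against 3 can give, and 0.133 after adjustment over the 4 ratios tested.

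CDK4 and CDK6 encode closely related kinases that are activated by any of the D-type cyclins. CDK4 lies at chr12:57747727-57756013 on the minus strand. Its counts were 1417, 1471 and 1283 with DMSO and 1459, 1670 and 1504 with abemaciclib, which gave levels of 409, 435 and 387 CPM against 439, 410 and 404 CPM. The groups overlap over most of their range. The means were 410 ± 24.1 and 418 ± 18.7 CPM (SD, n = 3), with a log2 fold change of 0.03 and an SE of 0.09 (adjusted P = 0.873, edgeR). The 95% interval of the fold ran from 0.893 to 1.16. The sign of the difference turned to −0.01 without DMSO replicate 3 or without abemaciclib replicate 1.

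The last 500 bases of CDK4 lie within TSPAN31 on the opposite strand, with 1369 exonic bases shared in all. TSPAN31 had 172, 167 and 166 counts with DMSO and 135, 186 and 197 with abemaciclib, against at least 1283 for CDK4 in every library. Its groups overlap too (log2 fold change −0.10, SE 0.15, adjusted P = 0.707). Of the 10 tested genes within 100 kb of CDK4, 2 were higher and 1 was lower, beside 12.5% and 13.3% of all genes tested. OS9 was higher by 0.38 (SE 0.10) and EEF1AKMT3 by 1.48 (SE 0.38) on the log2 scale, whereas AGAP2 fell by 1.00 (SE 0.25). EEF1AKMT3 had only 13, 13 and 18 counts with DMSO and 24, 55 and 58 with abemaciclib. The call of OS9 was lost without DMSO replicate 1, where its adjusted P was 0.0656. All 3 of these genes overlap genes on the opposite strand.

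CDK6 lies at chr7:92604921-92836573 on the minus strand. Only 7, 3 and 2 counts were found with DMSO, and 0, 3 and 5 with abemaciclib, at or below 2.02 CPM in each library. The groups overlap, and several libraries were at or under the limit that a count of 0 allows. Summed over libraries, there were 12 counts with DMSO and 8 with abemaciclib, a ratio of rates of 0.61 with an exact 95% interval from 0.216 to 1.62 that covers counting error only. The counts allow any ratio within that interval, so at this depth neither a rise nor a fall of CDK6 could be told from no change. Over all libraries, 20 of the 8824 counts on the kinase pair were from CDK6, a share of 0.227% (exact 95% binomial interval 0.138% to 0.35%, for counting error only), or 440 CDK4 counts for each CDK6 count. The share in single libraries ran from 0% in abemaciclib replicate 1 to 0.492% in DMSO replicate 1. The mean share of CDK6 was 0.284% ± 0.182 with DMSO and 0.170% ± 0.166 with abemaciclib (SD, n = 3; exact permutation test, P = 0.5, adjusted P = 0.5). This difference of −0.113 percentage points rested on single libraries: it was −0.00936 without DMSO replicate 1, −0.177 without DMSO replicate 3, −0.0282 without abemaciclib replicate 1 and −0.194 without abemaciclib replicate 3.

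The promoters of the kinases are shown because CDK4 and CDK6 are both targets of the drug and their levels lay so far apart. Each is a window of 300 bases around a transcript start from RefSeq (GRCh38.p14), in which entries were matched by symbol for CCND3, CDK4 and CDK6. Capitals mark the E-box CACGTG, a motif bound by MYC and other basic helix-loop-helix factors that reads the same on both strands. All 3 windows are on the minus strand. The CDK4 window is chr12:57752261-57752560, and the CDK6 windows are chr7:92836524-92836823 and, for a second start, chr7:92833910-92834209.
CDK4: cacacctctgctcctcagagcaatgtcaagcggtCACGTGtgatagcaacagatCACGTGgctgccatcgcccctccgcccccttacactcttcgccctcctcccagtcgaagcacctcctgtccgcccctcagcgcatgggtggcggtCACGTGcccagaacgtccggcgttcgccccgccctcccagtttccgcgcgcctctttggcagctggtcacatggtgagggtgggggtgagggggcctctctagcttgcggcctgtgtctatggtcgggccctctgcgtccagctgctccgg
CDK6, first start: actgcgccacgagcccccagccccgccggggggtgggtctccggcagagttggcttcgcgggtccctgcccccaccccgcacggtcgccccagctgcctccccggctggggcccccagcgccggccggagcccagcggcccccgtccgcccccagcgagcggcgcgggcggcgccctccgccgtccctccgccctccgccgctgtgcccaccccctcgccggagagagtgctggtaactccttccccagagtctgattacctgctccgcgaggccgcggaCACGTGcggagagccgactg
CDK6, second start: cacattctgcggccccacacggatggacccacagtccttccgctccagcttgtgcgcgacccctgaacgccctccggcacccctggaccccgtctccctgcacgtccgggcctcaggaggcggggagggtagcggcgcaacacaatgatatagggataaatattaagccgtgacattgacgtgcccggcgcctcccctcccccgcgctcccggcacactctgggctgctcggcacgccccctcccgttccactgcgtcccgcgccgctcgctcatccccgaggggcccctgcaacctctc

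The CDK4 window holds 3 E-boxes, the first CDK6 window holds 1 and the second holds 0. Of all 34943 RefSeq promoter windows of this length, 7.23% hold at least 1 and 0.0944% hold 3 or more. The E2F motif, searched as TTTCCCGC, TTTGGCGC, TTTGCCGC or TTTCGCGC on both strands, was in 0 of the CDK4, CDK6 and CCND3 windows and in 3.3% of all windows. The GC box, another promoter motif searched, was found 3 times in the CDK4 window. It was found 3 times in the first CDK6 window and 0 times in the second. Of all windows, 44.9% hold at least 1 GC box and 15.7% hold 3 or more. The remaining motifs searched were in 0 of the CDK4, CDK6 and CCND3 windows. Among the motifs searched, only the E-box differed in number between the CDK4 window and the first CDK6 window. These matches describe the letters only, and whether they bear on the levels of CDK4 and CDK6 was not tested. MYC itself was at 37.1 ± 3.59 CPM with DMSO and 32.4 ± 4.71 CPM with abemaciclib (SD, n = 3), a log2 difference of −0.19 (SE 0.18, adjusted P = 0.481).

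The balance between cyclins and kinases can be read within each library, without any scaling between libraries. There were 2.98, 2.76 and 3.07 D-type cyclin counts for each CDK4 or CDK6 count with DMSO. With abemaciclib there were 6.82, 7.43 and 7.25. The groups did not overlap, and the mean ratio was 2.94 ± 0.163 with DMSO and 7.17 ± 0.311 with abemaciclib (SD, n = 3). The log2 ratio was higher by 1.29 with abemaciclib (exact permutation test, P = 0.1, the smallest possible, adjusted P = 0.133). CCND1 and CDK4 made up nearly all of this ratio, and their own ratio was 2.87 ± 0.173 with DMSO and 7.12 ± 0.321 with abemaciclib.

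**Figure D1:**
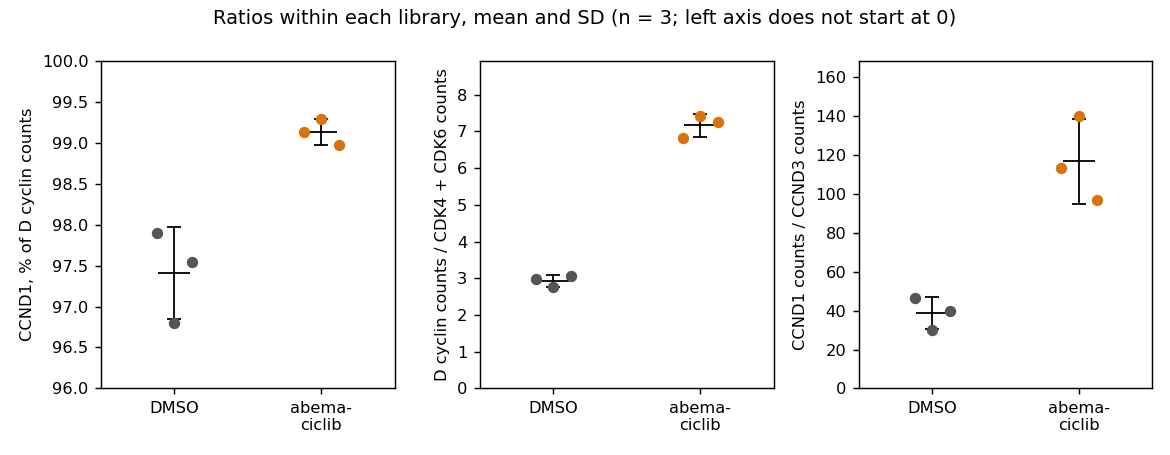
Ratios of counts within each library for DMSO (grey) and abemaciclib (orange): CCND1 as a percentage of D-type cyclin counts (this axis does not start at 0), D-type cyclin counts per CDK4 or CDK6 count, and CCND1 counts per CCND3 count. Points are libraries and bars the mean and SD (n = 3). The groups do not overlap in any panel, and the cyclin to kinase ratio is 2.76 to 3.07 with DMSO and 6.82 to 7.43 with abemaciclib.

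The genes whose profile over the 6 libraries lay nearest to a member were found by the root-mean-square distance of log2 CPM from the DMSO mean, among 6132 genes with a mean of at least 20 CPM. Nearest to CCND1 were IGFBP5, which encodes a binding protein for insulin-like growth factors, at a distance of 0.082, then GOLM1, a Golgi membrane protein gene, at 0.092 and DCAF10 at 0.096. IGFBP5 rose from 2497 to 5898 CPM, with a log2 fold change of 1.24 (SE 0.08). GOLM1 rose by 1.25 (SE 0.11) and DCAF10 by 1.27 (SE 0.10) on the same scale. Nearest to CCND3 were DNAJC2, POLR1D and RPS20P2, between 0.091 and 0.1, the last a pseudogene that may share reads with its parent gene. Nearest to CDK4 were MRPL34, ETFA and POP7, between 0.035 and 0.045, and none of these genes nearest to CCND3 or CDK4 passed the threshold, although RPS20P2 did without abemaciclib replicate 3 (adjusted P = 0.0388).

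Cyclin D–CDK4/6 pairs are held back by the INK4 proteins, which bind the kinases, and are assembled or inhibited by the CIP/KIP proteins. Of the 7 genes for these proteins, 5 could be tested, and 5 were lower and 0 higher, beside 13.3% and 12.5% of all genes tested (edgeR, 0 higher at an unadjusted P under 0.05 and 0 with DESeq2). Their median log2 fold change was −2.55, beside −0.002 for all genes tested. CDKN2C, for the INK4 protein p18, fell from 32.4 ± 4.41 to 4.62 ± 2.12 CPM (SD, n = 3), with −2.77 as its log2 fold change (SE 0.28). CDKN2A and CDKN2D, for other INK4 proteins, fell by 2.20 (SE 0.22) and 2.55 (SE 0.36) on the log2 scale. CDKN2D, whose value is the list median, had 43 to 66 counts with DMSO and only 8 to 13 with abemaciclib. Of the CIP/KIP genes, CDKN1A, for p21, fell by 2.66 (SE 0.15) and CDKN1B, for p27, fell by 0.79 (SE 0.15). CDKN2B had 0 to 3 counts and CDKN1C 0 to 12, too few to test.

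CDK4 and CDK6 need a phosphate from the CDK-activating kinase (CDK7, with CCNH and MNAT1), and they are folded by CDC37 and HSP90. Of these 6 genes, all tested, 1 was higher, close to the 12.5% of all genes, and 0 were lower, beside 13.3% (0 at an unadjusted P under 0.05 and 0 with DESeq2), with a median log2 fold change of 0.14. The 1 higher gene was CDK7, at 14.8 ± 1.25 CPM with DMSO and 24.3 ± 3.18 CPM with abemaciclib (SD, n = 3), and its log2 fold change was 0.71 (SE 0.22, adjusted P = 0.0179). This call was lost under 4 of the alternatives: DESeq2 and the fits without replicate 1 or 3 of DMSO or without replicate 3 of abemaciclib (adjusted P up to 0.0699).

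D-type cyclins are short-lived proteins, and CRL4 ubiquitin ligases with AMBRA1 mark them for destruction. Of 12 genes for their turnover, 10 were tested, with 1 higher, 1 lower and a median log2 fold change of 0.15. Both counts are close to the 12.5% and 13.3% of all genes tested. DDB1, the adaptor of these ligases, was higher by 0.32 (SE 0.11, adjusted P = 0.0339), a call lost under 6 of the alternatives: DESeq2, the replicate block and the fits without replicate 1 or 2 of DMSO or without replicate 1 or 3 of abemaciclib (adjusted P up to 0.184). RBX1, their RING subunit, fell by 0.51 (SE 0.12, adjusted P = 0.00272). AMBRA1 had a log2 difference of 0.16 (SE 0.30, adjusted P = 0.758), and GSK3B, a kinase that phosphorylates cyclin D1, one of 0.21 (SE 0.12, adjusted P = 0.197).

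Of 21 genes for factors known to act on CCND1 transcription, 19 could be tested, of which 6 were higher, beside 12.5% of all genes, and 3 lower, close to the 13.3% of all genes, with a median log2 fold change of 0.07. Beside CCND1 at 1.34, the highest log2 fold changes were those of JUN (0.97, SE 0.13), ESR1 (0.82, SE 0.10) and FOS (0.77, SE 0.17), the genes for an AP-1 subunit, for ER and for the AP-1 partner of JUN. STAT3 rose by 0.52 (SE 0.10), and TFAP2C, for an AP-2 factor, by 0.44 (SE 0.10). TFAP2A, at 0.30 (SE 0.11, adjusted P = 0.0463), lost its call under 7 of the alternatives: DESeq2, total counts only, the replicate block and the fits without replicate 1, 2 or 3 of DMSO or without replicate 3 of abemaciclib (adjusted P up to 0.337). FOSL2 fell by 1.32 (SE 0.22), PGR, for the progesterone receptor, by 0.95 (SE 0.14) and SP1 by 0.59 (SE 0.14). FOXA1, at 0.07 (SE 0.10, adjusted P = 0.64), and GATA3, at 0.16 (SE 0.09, adjusted P = 0.213), did not pass, although GATA3 did without abemaciclib replicate 3 (adjusted P = 0.00536).

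Rb and its relatives are the substrates of the pairs. RB1 fell from 55.9 ± 7.28 to 33.8 ± 2.23 CPM (SD, n = 3), −0.73 as a log2 fold change (SE 0.16, adjusted P = 0.00104), and RBL1, for p107, fell by 1.34 (SE 0.37, adjusted P = 0.0082), a call lost without DMSO replicate 3 (adjusted P = 0.0925). RBL2, for p130, had a log2 difference of 0.57 (SE 0.22, adjusted P = 0.0579), which passed without abemaciclib replicate 1 (adjusted P = 0.0481). Downstream, 12 of 15 E2F target genes were lower and 0 higher, beside 13.3% and 12.5% of all genes tested (edgeR, 0 at an unadjusted P under 0.05 and 0 with DESeq2), with a median log2 fold change of −2.11. With a minimum of 10 counts in every library, which left fewer genes, 8 of them were lower. TYMS, for thymidylate synthase, fell by 6.06 (SE 0.27), on 252 to 286 counts with DMSO and only 2 to 7 with abemaciclib. With a library left out, its log2 fold change ran from −6.57 to −5.66. CCNE2, for cyclin E2, fell by 5.58 (SE 0.55), with 47 to 54 counts in the DMSO libraries and 1 in each abemaciclib library. Its relative CCNE1 had a log2 difference of −0.53 (SE 0.31, adjusted P = 0.229), and MCM3 and CDC6 did not pass either.

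Other cyclin and CDK genes were set beside the members. Of 16 other cyclin genes, 13 were tested, with 2 lower, close to the 13.3% of all genes, 0 higher, beside 12.5% (1 at an unadjusted P under 0.05 and 0 with DESeq2) and a median log2 fold change of 0.02. The lower genes were CCNF, which fell by 1.97 (SE 0.15), and CCNO, which fell by 0.86 (SE 0.18). Of 17 other CDK genes, 12 were tested, with 2 higher, 4 lower and a median of −0.22, beside 12.5% higher and 13.3% lower of all genes tested. CDK5 rose by 0.69 (SE 0.14), CDK2, the partner of cyclins E and A, fell by 0.67 (SE 0.12) and CDK10 fell by 0.95 (SE 0.27). The other calls were less firm, and each was lost with DESeq2. That of CDK12 (0.36, SE 0.12) was also lost with the replicate block and without replicate 1, 2 or 3 of DMSO or replicate 2 of abemaciclib. That of CDK14 (−0.92, SE 0.30) was lost without replicate 1 or 3 of DMSO or replicate 2 or 3 of abemaciclib. That of CDK19 (−0.56, SE 0.21) was lost with no filter on low counts, with the replicate block and without replicate 2 or 3 of DMSO or any abemaciclib replicate.

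**Figure D2:**
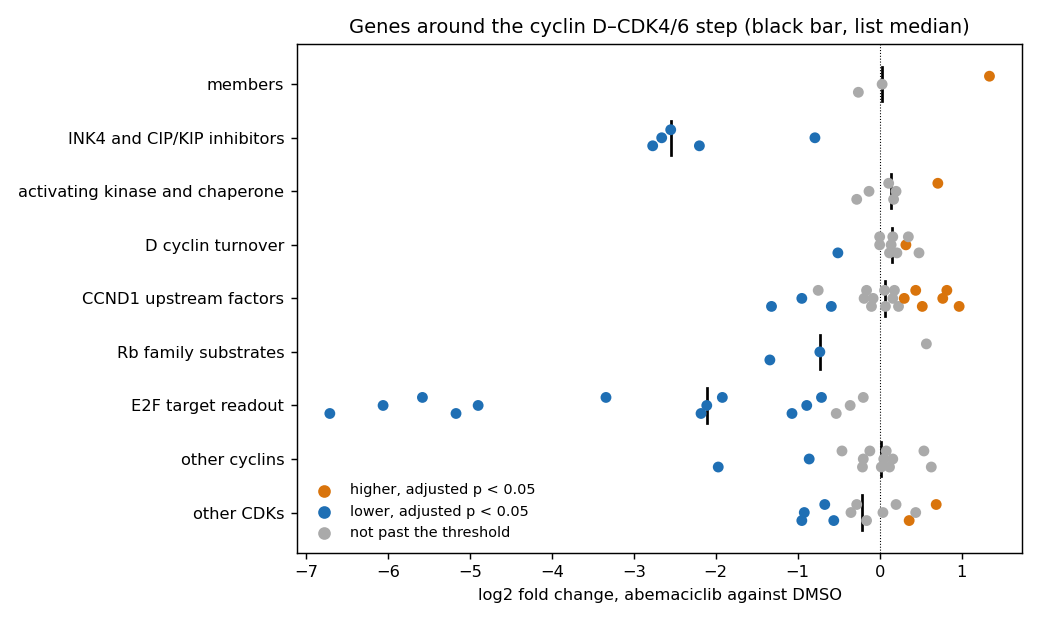
log2 fold change, abemaciclib against DMSO, of each tested gene in the lists around the cyclin D–CDK4/6 step. Points are genes, coloured orange for higher and blue for lower at an adjusted P under 0.05 (edgeR) and grey otherwise, and black bars are list medians. The inhibitor genes (median −2.55) and the E2F targets (median −2.11) lie to the left of 0, and CCND1, at 1.34, is the rightmost point of all lists.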

How the data were processed

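Per the labels and the study's methods, the authors prepared 3′ mRNA libraries, trimmed the reads (BBDuk), mapped them to hg38 (STAR 2.7.5b) and summed them by gene (featureCounts 2.0.1, GENCODE). The deposited table holds raw gene counts, with no scaling or filter. Strand use in counting is not given in the sources used here. Of 60656 rows, 60445 had an identifier that matched a symbol and 211 did not. Gene positions were read from a newer GENCODE version of the GRCh38 assembly.

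Counts were filtered with filterByExpr, scaled by TMM and tested with the quasi-likelihood test of edgeR 4.0.16 (R 4.3.3; Benjamini–Hochberg over 10863 genes, threshold 0.05, no block, two-sided). Ratios within a library were compared by exact permutation over libraries. A log2 ratio of CDK4 to CDK6 was planned, but CDK6 was at 0 in 1 library, so the share of CDK6 was compared instead. The biological coefficient of variation was 13.2%. Total counts were 3317860 to 4013156 per library, and limits for counts of 0 (3 counts) cover counting error only.

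The genes named are the members, the genes of the lists, the 3 nearest profiles of each tested member and genes within 100 kb. The members and lists were chosen with earlier results of these data known. Scripts were tested on simulated data. Alternatives were DESeq2 1.42.0, its size factors in edgeR, total counts only, no filter, at least 10 counts in every library, a replicate block and each library left out in turn.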

Additional observations from a re-analysis of the deposited data

How the results depend on the processing

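CCND1 was called higher under all 12 alternatives, with a log2 fold change between 1.32 and 1.35. CCND3 lay between −0.39 and −0.08 and CDK4 between −0.01 and 0.07, and neither was called under any of them. With 316 and 287 counts of CCND3 and 12 and 8 of CDK6 in the groups, depth limits what can be said of these genes.

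With DESeq2, 0 kinase-activating and chaperone genes and 0 turnover genes were higher, and 1 of the other CDK genes was higher and 2 were lower. With a minimum of 10 counts in every library, which left fewer genes, 3 inhibitor genes and 8 E2F target genes were lower. Leaving out each library in turn gave 0 to 1 higher kinase-activating and chaperone genes, 0 to 1 higher turnover genes, 0 to 1 higher and 1 to 2 lower Rb family genes, 0 to 1 higher other cyclins, and 1 to 2 higher and 2 to 3 lower other CDKs. The log2 fold change changed sign for MRPL34 (0.01 with DESeq2, 0.0 with its size factors and without a filter, −0.06 to 0.05 with a library left out), ETFA (0.0 with total counts only, −0.05 to 0.09), POP7 (−0.06 to 0.01), LTO1 (−0.67 to 0.03) and MCM3 (−0.33 to 0.05), and for CDK4 (−0.01 to 0.07). None of these genes was called in any setting, and the causes of these moves were not tested.

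No sign of pairing by replicate number was seen. Deviations from the group means of same-numbered libraries correlated at −0.139, 0.004 and −0.207, and no library correlated best with its own number. With 3 libraries per group, this check cannot show that the libraries were unpaired. A replicate block gave 1139 higher and 1280 lower genes, against 1354 and 1442 without it, with 0 turnover genes and 1 of the other CDK genes higher. Under the block, the share of CCND1 was higher by 1.72 percentage points and the cyclin to kinase log2 ratio by 1.29 (exact sign-flip permutation, P = 0.25, the smallest possible).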
